A study of Mus musculus with 5 samples.

Results

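The odorant receptor (OR) genes that surround *Olfr151* on mouse chromosome 9 were followed in sorted neurons that transcribe *Olfr151*. Members were the genes named Olfr followed by a digit whose smallest exon start lay between 37000000 and 41000000 on chromosome 9 of GRCm38, pseudogenes included. There were 123 such genes among the 1407 genes named Olfr and the 55411 genes of the count tables. They span 2481171 bases, from *Olfr160* at 37708964 to the end of *Olfr986* at 40190134, with 83 genes on the plus and 40 on the minus strand. The annotation gives 95 of them as protein coding, 18 as unprocessed pseudogenes and 10 as polymorphic pseudogenes, *Olfr151* being among the last.

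All mice carried Olfr151tm26Mom on both alleles, in which an IRES-tau-GFP reporter follows *Olfr151*, so that the same promoter drives the receptor and the fluorescent label. They were males of 7 weeks, and the controls carried the same alleles as the exposed animals. Isolated mice were exposed for 5 h to 5% acetophenone in DMSO, or to DMSO alone as control. Cells positive for GFP and Hoechst were sorted from the main olfactory epithelium of 4 mice per pool, and polyadenylated RNA was read from each pool. Control pools 1, 2 and 3 and exposed pools 1 and 3 were analysed, while exposed pool 2 was not analysed here. Values are listed below in the order control 1, 2, 3 and then exposed 1, 3. A pool is described as 200 cells in one field of the labels and as 400 in another, and the authors' methods give 200 for this line.

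OR genes encode G protein-coupled receptors, and a mature olfactory sensory neuron transcribes in general a single allele of a single one of them. The genes lie in clusters on many chromosomes, with a coding sequence usually held in one exon, and neighbours have arisen by local duplication. *Olfr151*, also named M71, encodes a receptor for acetophenone, and *Olfr160*, also named M72, is its closest relative.

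The 5 libraries held 42780403 to 49527380 counts, of which 0.249% to 0.631% belonged to spike-in RNAs. A gene with more than 3 counts in a library was taken as detected there; 3 counts correspond to 0.0606 to 0.0701 CPM, the unit of counts scaled to library totals. Reads carry no molecular identifiers, so intervals and detection limits cover counting error only. The defining markers of mature neurons were abundant, *Omp*, the olfactory marker protein gene, having 517814 to 774399 counts per library. Markers of other cells were present at lower levels that differed between pools. The 6 myeloid markers summed to 125, 17.1 and 13.0 CPM in the controls and to 114 and 33.6 CPM after exposure, and the 4 sustentacular cell markers to 68.6 to 170 CPM in control and to 80.5 and 225 CPM in exposed pools. All markers of both lists were detected in some pool. The 2 hemoglobin genes summed to 10.6 to 291 CPM in control and to 5.26 and 12.1 CPM in exposed pools. The lists for horizontal basal, microvillar and ensheathing glial cells reached at most 2.43, 26.7 and 4.66 CPM in any pool. The globose basal cell marker *Neurod1* had 232 counts in exposed pool 3 and 0 in the others. In RNA from pooled cells, fewer cells of a type and less RNA per cell cannot be told apart.

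*Olfr151* and *Olfr160* are similar enough to share reads, and their sequences are shown here because they decide how far the counts of the pair can be separated. Both lie on the minus strand, *Olfr160* from 37708964 to 37716250 and *Olfr151* from 37722960 to 37733183, with 6709 bases between them. In the GENCODE annotation of GRCm38, the coding sequences were 96.7% identical, with 30 substituted positions and 1 gap over 930 alignment columns. The gap falls at column 741 from the start codon, where the reference coding sequence of *Olfr151* has 929 bases and that of *Olfr160* has 930. The stretch around the gap is given 5′ to 3′ on the coding strand, for *Olfr151* at chr9:37730202-37730281 and for *Olfr160* at chr9:37711497-37711577, with the base that faces the gap in capitals.
Olfr151: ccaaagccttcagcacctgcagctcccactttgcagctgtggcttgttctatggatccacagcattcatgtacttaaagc
Olfr160: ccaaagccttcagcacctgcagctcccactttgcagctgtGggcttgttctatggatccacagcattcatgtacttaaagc
Apart from that base, the stretch is the same in both genes. A second stretch, of 80 bases and with more substitutions, lies at chr9:37730482-37730561 in *Olfr151* and at chr9:37711778-37711857 in *Olfr160*, and capitals mark the 8 positions that differ.
Olfr151: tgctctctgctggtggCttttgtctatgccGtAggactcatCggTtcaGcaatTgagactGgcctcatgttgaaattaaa
Olfr160: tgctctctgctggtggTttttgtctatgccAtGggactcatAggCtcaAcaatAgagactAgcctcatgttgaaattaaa
A read of 50 bases from the second stretch can be told from its counterpart by at least one of these positions. Of the 3443 windows of 50 bases in the *Olfr160* transcript, 355 were identical to a window of *Olfr151*, 352 more differed by 1 or 2 bases, and 2472 differed from every such window by more than 10. Reads that map to several places were not counted, so windows identical in the reference give no counts to either gene. Beyond the 355, 48 windows of *Olfr160* would be identical to *Olfr151* if *Olfr151* held the base at the gap. Reads over the gap from an allele with that base would match *Olfr160* exactly, and the reference *Olfr151* only with a gap. The part of such reads in the counts of *Olfr160* was not tested. Only 1128 bases of *Olfr151* were available in the annotated transcripts, against 8321 exonic bases in the count tables, and the sequence of the targeted allele was not read here.

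*Olfr151* dominated the counts of its cluster in every pool. Its counts were 139703, 150234 and 166294 without and 103864 and 97297 with acetophenone. Of all counts on the 123 members, it held 91.7% (95% Wilson interval 91.6 to 91.9), 97.9% (97.9 to 98.0) and 99.5% (99.5 to 99.6) in the control pools and 91.9% (91.8 to 92.1) and 97.0% (96.8 to 97.1) in the exposed pools. This averages to 96.4% ± 4.13 for controls (SD, n = 3) and to 94.4% ± 3.56 after exposure (SD, n = 2), and the pools of both conditions overlapped. As TPM, which scales counts by exon length and library, the share was 70.3%, 96.4% and 98.9% in control pools and 70.0% and 92.5% in exposed pools. Control pool 1 and exposed pool 1 thus stood apart from the other pools on both scales. The genes behind this difference, *Olfr957* and *Olfr969*, are described below.

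**Figure D1:**
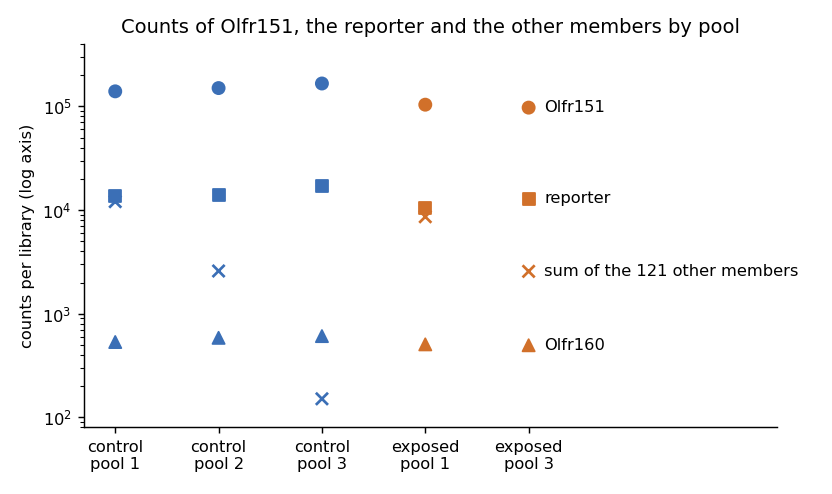
Counts per library, on a log axis, of Olfr151 (circles), the IRES-tau-GFP reporter (squares), Olfr160 (triangles) and the sum of the 121 other members (crosses), for 3 control pools (blue) and 2 exposed pools (orange). Olfr160 stays between 496 and 608 counts, while the sum of the 121 others runs from 151 counts in control pool 3 to 12058 in control pool 1.

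Scaled by TMM, the level of *Olfr151* was 3270 ± 283 CPM in control pools (SD, n = 3) and 2364 ± 66.1 CPM after exposure (SD, n = 2). The conditions did not overlap, the exposed pools being lower, with a log2 fold change of -0.47 (standard error 0.12). The adjusted p of edgeR's quasi-likelihood test was 0.101, and the gene was not called at the thresholds used here (an adjusted p under 0.1 with a log2 fold change beyond 0.5 in either direction). By the same test, 3.42% of the 10055 genes tested were called higher and 1.85% lower. The 7 markers of mature neurons summed to 39413 to 43045 CPM in the controls and to 29086 and 32576 CPM after exposure, a lower sum as for *Olfr151*. *Omp*, *Adcy3*, *Gnal* and *Gng13* were not called, with log2 fold changes of -0.32, -0.59, -0.17 and -0.0018. *Adcy3* had 91963 and 259445 counts in exposed pools 1 and 3, against 234241 to 367143 in the controls. *Cnga2*, *Cnga4* and *Rtp1*, 3 of the 7, were called lower. So was *Nqo1*, a marker of the dorsal zone in which these neurons lie, while *Gap43*, a marker of immature neurons, was called higher. Their part in the level of *Olfr151* was not tested. The reporter feature, 2554 bases long, had counts of 13764, 13847 and 17217 in the controls and of 10375 and 12860 after exposure. Receptor and reporter come from the same transcript, and each reporter count was accompanied by 10.1, 10.8 and 9.66 *Olfr151* counts in control pools and by 10.0 and 7.57 in exposed pools. The means of 10.2 ± 0.60 (SD, n = 3) and 8.79 ± 1.73 (SD, n = 2) were not separated in an exact permutation test over pools (two-sided, p = 0.2; the 10 arrangements allow no p below 0.1). Exposed pool 1 lay within the range of the control pools and exposed pool 3 below it.

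*Olfr160* was the only other member detected in all 5 libraries. Its counts were 533, 585 and 608 in the controls and 506 and 496 after exposure. After TMM scaling, the highest pool was 1.11 times the lowest, with 12.4 ± 0.67 CPM in control pools (SD, n = 3) and 11.8 ± 0.048 CPM after exposure (SD, n = 2). Among the 1284 Olfr genes outside the interval, only *Olfr549* on chromosome 7 was also detected in every pool, at 44 to 8379 counts. The level of *Olfr160* was thus low and even, whereas the other receptor seen in every pool varied widely. Per exon length, *Olfr160* was at 0.871% to 0.928% of the TPM of *Olfr151* in control pools and at 1.16% and 1.21% in exposed pools.

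The exposure left *Olfr160* without a call, at a log2 fold change of -0.07 (SE 0.35, adjusted p = 0.941 by edgeR). Relative to its neighbour, it stood at 0.382, 0.389 and 0.366 counts per 100 *Olfr151* counts in the controls and at 0.487 and 0.510 after exposure. This ratio was chosen after the counts had been seen. Its means were 0.379 ± 0.012 (SD, n = 3) and 0.498 ± 0.016 (SD, n = 2), the conditions did not overlap, and the exact permutation test (two-sided) gave p = 0.1, the smallest value it can reach. Per 100 reporter counts, *Olfr160* was at 3.87, 4.22 and 3.53 in control and at 4.88 and 3.86 in exposed pools, which overlapped (permutation p = 0.5). How many reads of *Olfr151* transcripts were placed on *Olfr160*, or the reverse, was not tested.

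**Figure D2:**
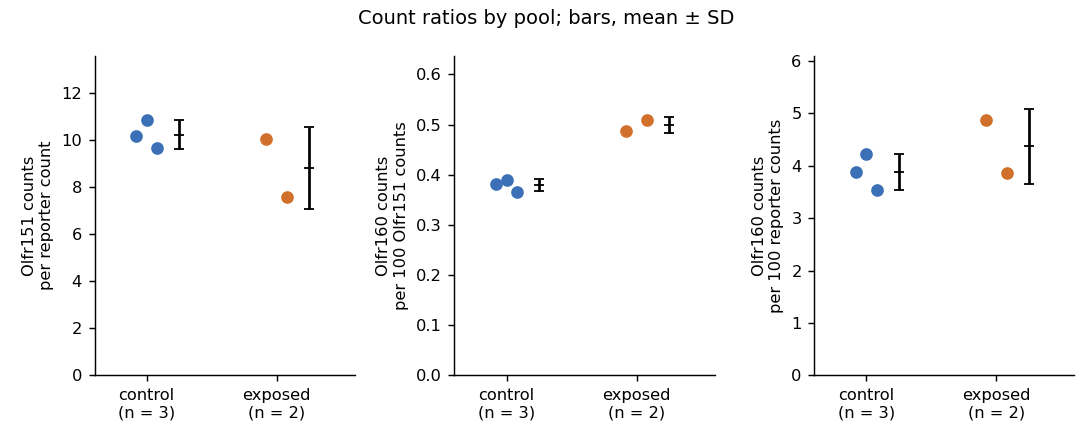
Count ratios in each pool (points, control blue and exposed orange), with mean ± SD as bars, on linear axes from 0. Olfr160 per 100 Olfr151 counts is 0.366 to 0.389 in control and 0.487 to 0.510 in exposed pools, while both ratios to the reporter overlap between the conditions.

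Most of the other detected members appeared in single pools, as did most OR genes detected elsewhere. Of the 122 members other than *Olfr151*, 76 had 0 counts in all 5 libraries and 15 had at most 1 to 3 counts in a library, leaving 31 that were detected in at least 1. Of these 31, 24 were detected in 1 library (77.4%, against 75.8% of the Olfr genes detected outside the interval), 5 in 2, 1 in 3, and *Olfr160* in all 5. By condition, 13 members were detected in control pools only, 15 in exposed pools only and 3 in both (41.9%, 48.4% and 9.68%), against 49.3%, 35.8% and 14.9% of the 335 Olfr genes detected outside the interval. For 26 of the 31, over 90% of all counts lay in 1 library. Of the 27 other members annotated as pseudogenes, 5 were detected, and of the 95 protein-coding ones, 26 were.

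*Olfr957* and *Olfr969* had the highest counts after *Olfr151*. *Olfr957* (chromosome 9, 39510234 to 39515809, minus strand) had 11925 counts in control pool 1, 25 in control pool 2 and 0 in the other libraries. *Olfr969* (39790945 to 39796635, plus strand) had 8035 counts in exposed pool 1 and 0 in the other 4. Scaled by exon length, *Olfr957* reached 511 TPM, or 41.2% of the *Olfr151* TPM in its pool, and *Olfr969* 349 TPM, or 40.3%. These percentages depend on the exon lengths of the count tables, which are 8321 bases for *Olfr151*, 1726 for *Olfr957* and 1597 for *Olfr969*. In counts, *Olfr151* had 139703 in control pool 1 and 103864 in exposed pool 1. *Olfr957* and *Olfr969* made up 98.9% and 93.2% of the counts on all members other than *Olfr151* and *Olfr160* in these pools. These 2 pools were also those with the highest myeloid and sustentacular marker sums, a relation to the receptor counts that was not tested.

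Lower counts followed the same pattern of single pools. *Olfr980* had 2046 counts in exposed pool 3 and 0 in the other 4 libraries. *Olfr147* had 54 counts in control pool 1, 1656 in control pool 2 and 0 in the others, and *Olfr920* had 732 counts in control pool 2 alone. The last 2 genes thus shared a control pool, and *Olfr980* was seen in an exposed pool only. In exposed pool 1, *Olfr143* had 242 counts and *Olfr877* 219. *Olfr143* also had 24 counts in exposed pool 3 and 1 in control pool 2, whereas *Olfr877* was at 0 elsewhere. *Olfr979* had 237 counts in exposed pool 3 and 2 in control pool 1, and *Olfr145* had 84 counts in control pool 3 and 1 in control pool 1. Per exon length, the levels of these genes in their highest pool ran from 0.92 TPM for *Olfr145* to 50.5 TPM for *Olfr980*, which was 5.73% of the TPM of *Olfr151* in that pool. Over all members, 9 passed 100 counts and 4 passed 1000 counts in some library, *Olfr151* not included.

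**Figure D3:**
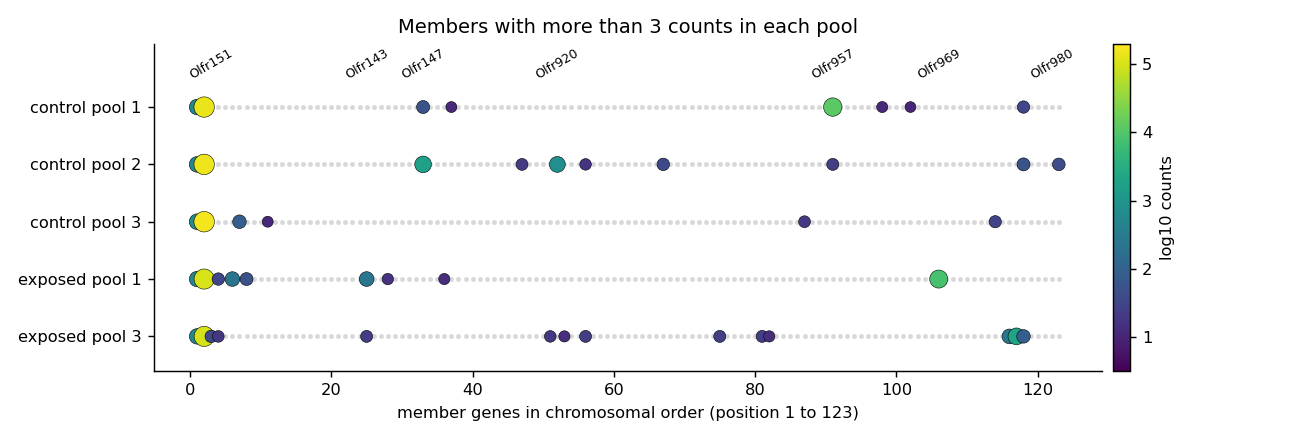
The 123 members in chromosomal order (horizontal axis, position 1 to 123) for each of the 5 pools; coloured dots mark members with more than 3 counts, larger and lighter dots having higher counts on a log10 scale, and small grey dots mark the rest. Only the first positions, Olfr160 and Olfr151, are filled in every pool, and each pool has 4 to 12 other detected members.

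Detection in the cluster was compared with that of OR genes elsewhere, as a description. In control pools 1, 2 and 3, 5.74%, 7.38% and 4.10% of the 122 other members were detected, and in exposed pools 1 and 3 it was 6.56% and 10.7%. The 1284 Olfr genes outside the interval gave 5.53% to 7.94%, a range that overlaps the values of the cluster. Over all pools, 25.4% of the cluster and 26.1% of the genes outside were detected at least once. A large cluster of 287 Olfr genes on chromosome 2 was at 3.48% to 8.36% per pool, and the 156 genes of the class I cluster on chromosome 7 at 5.77% to 12.8%. The 50 Olfr genes on the rest of chromosome 9 were at 0% to 4.00%, where 0 detected genes in control pool 3 mean that none passed 3 counts at this depth. Members of the cluster took 14.9%, 10.2% and 1.24% of all OR counts other than those of *Olfr151* in control pools and 12.0% and 2.49% in exposed pools, while they make up 8.68% of the other Olfr genes.

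**Figure D4:**
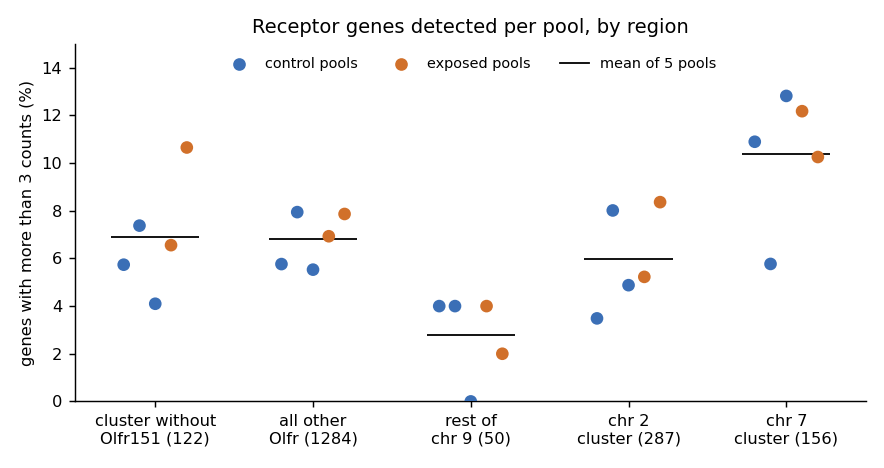
Percent of Olfr genes with more than 3 counts in each pool (points, control blue and exposed orange; line, mean of 5 pools) for the cluster without Olfr151 and for 4 other sets, with the number of genes in parentheses. The points of the cluster, 4.10% to 10.7%, overlap those of all other Olfr genes, 5.53% to 7.94%.

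Neighbours of *Olfr151* were then looked at by distance. The 5 nearest members were *Olfr160*, *Olfr874*, *Olfr875*, *Olfr876* and *Olfr877*, at 6709, 11922, 38673, 69847 and 121085 bases. *Olfr874* had 1 count in exposed pool 1, 34 in exposed pool 3 and 0 in all control pools. *Olfr875* had 33 counts in exposed pool 1, 19 in exposed pool 3 and likewise 0 in control pools. *Olfr876* was at 0 in all 5 libraries. *Olfr874*, *Olfr875* and *Olfr877* were thus detected in exposed pools alone, *Olfr874* and *Olfr877* in a single pool each. Detection in exposed pools only held for 48.4% of all detected members other than *Olfr151*. It held for 35.8% of the Olfr genes detected outside the interval. Across all 122 members, which are not independent replicates, distance from *Olfr151* and highest count had a Spearman's rho of -0.00052.

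Similarity to *Olfr151* was looked at in the same way. After *Olfr160*, the members with the highest coding identity were *Olfr229* (69.5%), *Olfr985* (69.1%), *Olfr967* (69.0%) and *Olfr150* (68.4%), against a median of 64.0% over the 95 members with a coding sequence. *Olfr229*, *Olfr967* and *Olfr150* had 0 counts in every library, and *Olfr985* had 1 count in exposed pool 3. None of these 4 members was detected at this depth. Leaving out *Olfr160*, identity and highest count had a Spearman's rho of 0.095 over 94 members.

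Pairs of adjacent members, *Olfr151* left out, were both detected in the same library in 5 of 121 cases. All 5 were in exposed pool 3, the pool with the most detected members (13). Adjacent Olfr genes outside the interval were not counted in this way, so the number cannot be set against a general rate. The pair with the highest counts was *Olfr979* and *Olfr980*, both on the minus strand with 876 bases between them. In exposed pool 3 they had 237 and 2046 counts, and *Olfr981*, which follows on the plus strand after 11881 bases, had 81. The coding sequences of *Olfr979* and *Olfr980* were 92.5% identical and shared 152 windows of 50 bases. Reads from those windows were not counted, so the counts come from the positions at which the genes differ, and how many reads were placed on the wrong neighbour was not tested. *Olfr981* was detected in 3 pools, with 32 and 52 counts in control pools 1 and 2, 0 in control pool 3, and 3 and 81 in exposed pools 1 and 3.

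The question whether exposure to the ligand of *Olfr151* changed other receptors of its cluster could be tested for few members. The threshold of 140 counts in every library of a condition left 10055 genes, among them *Olfr151* and *Olfr160* but no other member. By edgeR's quasi-likelihood test, 3.42% of the genes tested were called higher and 1.85% lower after exposure, and 0 of these 2 members were called; 1 of them, *Olfr151*, had an unadjusted p under 0.05 (0.00533). With DESeq2 in place of edgeR, 0 were called as well. With a threshold of 10 counts, 4 members were tested, and *Olfr143* (adjusted p = 0.088, edgeR) and *Olfr875* (adjusted p = 0.0898, edgeR) were called higher, where 2.53% of all genes tested were. Both passed that threshold only through the exposed pools, and their control pools had 0 or 1 counts, so they had to differ between conditions to be tested. Without exposed pool 1, *Olfr980*, and without exposed pool 3, *Olfr969*, was tested and called higher on the single exposed library left, in each case a gene at 0 counts in the exposed library left out.

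Other genes of the same interval were followed for comparison. The interval holds 90 of them, 26 of which are protein coding, and 29 lie between the first and the last member, where none was tested. Of the 9 tested, 3 were called higher and 0 lower by edgeR's quasi-likelihood test, where 3.42% and 1.85% of all genes tested were. Among the called genes, *Slc37a2* passed the count threshold only through the exposed pools, as described below. *Scn3b*, the gene of a beta subunit of voltage-gated sodium channels, was the first tested gene beyond the last member (40269217 to 40291618, plus strand). Its counts were 24012, 36570 and 32069 in the controls and 71142 and 67479 after exposure, with a log2 fold change of 1.31 (SE 0.15, adjusted p = 0.00922). Its neighbour *Gramd1b* (40293233 to 40531383, minus strand), which encodes a sterol transfer protein of the endoplasmic reticulum, had counts of 1399, 1567 and 1534 and, after exposure, of 4184 and 4208, a log2 fold change of 1.61 (SE 0.20, adjusted p = 0.0103). In both genes, each exposed pool had more counts than any control pool.

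*Slc37a2* (37227585 to 37255738, minus strand), a sugar-phosphate exchanger of the endoplasmic reticulum known from macrophages, lay 453225 bases before the first member. Its counts were 1, 4 and 0 in the controls and 1789 and 2536 after exposure, with a log2 fold change of 10.38 (SE 0.77, adjusted p = 0.00241, edgeR), a size that rests on very few control counts. Among the 6 myeloid markers, only *Tyrobp* had both exposed pools above all controls, with 538, 123 and 67 counts in control and 1026 and 797 in exposed pools. *Csf1r* had 866, 0 and 0 counts in control and 788 and 66 in exposed pools. *Cd68*, *Lyz2*, *C1qa* and *C1qb*, like *Csf1r*, had their highest counts in control pool 1, where *Slc37a2* had 1 count. The part of myeloid cells in the counts of *Slc37a2* was not tested. *Tbrg1*, the tested gene closest to the cluster on the side of *Olfr151*, had 2179, 1163 and 1701 counts in control and 2168 and 1620 in exposed pools and was not called (log2 fold change 0.28, standard error 0.36, adjusted p = 0.718, edgeR). The other 5 tested genes, *Tmem218*, *Siae*, *Spa17*, *Hspa8* and *Jhy*, were not called either, with log2 fold changes of -0.73 to 0.65. Under scaling by spike-in RNAs, only *Slc37a2* kept its call, and *Gramd1b* lost it without exposed pool 1 (adjusted p = 0.109, edgeR).

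**Figure D5:**
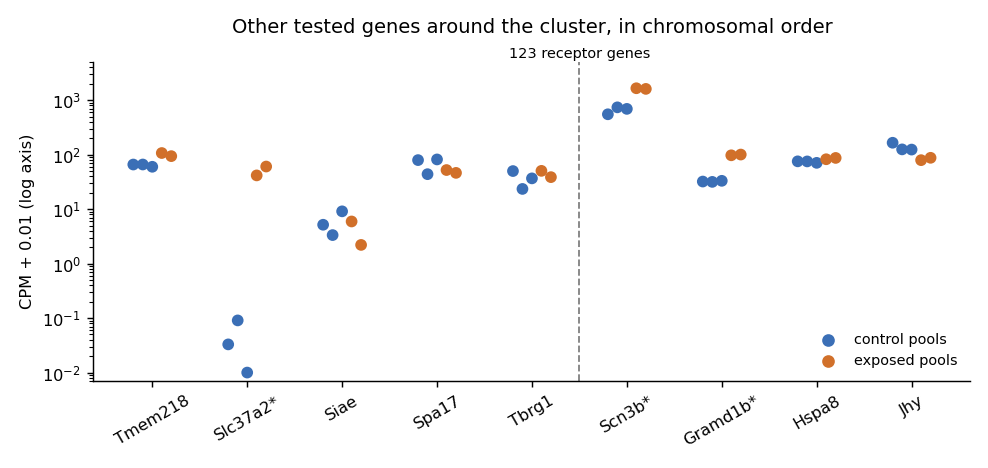
CPM + 0.01, on a log axis, of the 9 other tested genes in chromosomal order, for control pools (blue) and exposed pools (orange); the dashed line marks the place of the 123 receptor genes and asterisks mark called genes. Slc37a2, Scn3b and Gramd1b have both exposed pools above all control pools, and the point of Slc37a2 at 0.01 has 0 counts.

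Genes that act on OR gene choice and receptor export were read from the same fit. All 16 listed genes were tested, 3 were called lower and 0 higher, where 1.85% and 3.42% of all genes tested were, and 14 had a negative log2 fold change. The median over the list was -0.46, against -0.026 over all genes tested. *Ebf4*, of the Olf/Ebf family of transcription factors that bind near OR genes, had counts of 8208, 11927 and 11608 in the controls and of 4235 and 4281 after exposure (log2 fold change -1.18, standard error 0.18, adjusted p = 0.0262, edgeR). *Rtp1*, a chaperone that brings ORs to the cell surface, had 75560, 95248 and 92622 counts in control and 36106 and 39919 in exposed pools (log2 fold change -1.07, standard error 0.13, adjusted p = 0.00991, edgeR). For both genes, the exposed pools lay below every control pool. *Rtp1* is also among the mature neuron markers, whose summed level was lower in the same pools while *Gap43* was higher, as given above, and their part in the values of the list was not tested.

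*Ldb1*, the adaptor that links OR enhancers bound by Lhx2, had 4403, 4498 and 1501 counts in control and 678 and 800 in exposed pools (log2 fold change -2.10, standard error 0.51, adjusted p = 0.0988, edgeR). Its partner *Lhx2*, a homeodomain factor, had 16336, 21575 and 5387 counts in control and 2004 and 3604 in exposed pools and was not called (log2 fold change -2.22, standard error 0.61, adjusted p = 0.133, edgeR). The call of *Ldb1* was lost in 8 of 12 alternatives, among them both other count thresholds and the omission of control pool 1, control pool 2, exposed pool 1 or exposed pool 3, with adjusted p-values from 0.000662 (DESeq2) to 0.469 (edgeR, without exposed pool 1). Control pool 3 lay far below the other control pools for both genes. Without it, 5 genes of the list were called lower, *Lhx2* (adjusted p = 0.0125, edgeR) and *Kdm1a* among them. *Ric8b*, which assists the G protein of olfactory transduction, was not called at a log2 fold change of 0.37 (SE 0.14, adjusted p = 0.21, edgeR). Under spike-in scaling, which moved the median of all genes tested from -0.026 to -0.23, and without exposed pool 1, 0 genes of the list were called.

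Sequences before the gene starts were searched for motifs of the factors in that list. RefSeq windows of 300 bases (250 before and 50 after a start, GRCm38.p6) were found for 79 members, 80 windows in all, and for *Olfr151* none. In only 14 of the windows did the RefSeq start lie within 50 bases of the start in the count tables, so most windows do not describe the starts that were counted. The Olf/Ebf motif CCCNNGGGA, searched on both strands, was in 2 of those 14 windows, in 2.50% of the member windows and in 6.56% of all 32851 windows. Its shorter form CCCNNGGG, which every match of the longer also holds, was in 2.50% and 13.7%. The homeodomain motif TAATGA was in 5 of the 14, in 20.0% of the member windows and in 9.78% of all, and TAATTA in 0 of the 14, 17.5% and 5.29%. These matches are descriptions of letters in the windows, with no binding measured.

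The bases before the RefSeq start of *Olfr147*, one of the members with over 1000 counts in a pool, are shown because they hold both motifs. They lie at chr9:38401461-38401710 of GRCm38 on the plus strand, and capitals mark TAATGA and, read on the opposite strand, CCCNNGGGA.
Olfr147: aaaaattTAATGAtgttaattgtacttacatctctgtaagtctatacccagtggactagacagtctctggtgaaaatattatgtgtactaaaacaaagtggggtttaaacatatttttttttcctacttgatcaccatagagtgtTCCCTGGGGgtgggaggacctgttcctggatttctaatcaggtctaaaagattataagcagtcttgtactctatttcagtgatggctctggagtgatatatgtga
The matches begin 243 and 105 bases before the RefSeq start, which lies downstream of the start in the count tables (38401698), so that the last printed bases are inside the counted gene. *Olfr147* was at 0 counts in control pool 3 and in both exposed pools.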

How the data were processed

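For each of 5 pools (3 control, 2 exposed), the authors amplified cDNA by SMARTer chemistry, mapped single reads of 50 bases with STAR 2.7.0a on GRCm38 and deposited raw counts per gene made with featureCounts 1.6.3. Strand was not used, and reads mapping to several places or overlapping several genes were not counted, which lowers the values of similar receptors. Exon lengths were deposited too, and TPM was computed from them here.

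Gene names came from GENCODE M21 (55144 of 55411 matched). Counts were tested in R 4.3.3 with edgeR 4.0.16 (TMM, glmQLFit with robust estimation, glmQLFTest), Benjamini-Hochberg adjustment over all 10055 genes tested and condition as the only factor. Genes needed 140 counts, the lowest point between the modes of log2 counts, in every library of a condition. Ratios were compared by exact permutation (Python 3.11.15, scipy 1.17.1). The procedure was tested on simulated data. Identity to *Olfr151* was computed on coding nucleotides with Biopython 1.88, in place of the planned protein identity.

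Alternatives were DESeq2 1.42.0 with apeglm 1.24.0, its size factors or spike-in scaling in edgeR, 2 other filters, no robust estimation, a block for pool number, each library left out, and other units and detection limits. Members and lists were chosen with earlier results of these data known. Named members were *Olfr151*, *Olfr160*, the 10 others with the highest counts, every member tested, the 5 nearest and the 5 most identical to *Olfr151*. Called and nearest tested genes of the interval, and called genes of the regulator list with 2 not called, were named too. *Olfr981* and *Kdm1a*, the markers singled out, and the ratio of *Olfr160* to *Olfr151* were picked once their values had been seen. The labels do not tie pools to days of handling, and p-values measure the spread between pools of different mice. Pool numbers were not used to pair the samples in the main fit. The correlation of deviations from the condition means was 0.055 for pools 1 and -0.082 for pools 3. With 2 exposed pools, their deviations mirror each other, so these values cannot decide whether the pools were paired. One listed marker is not reported here.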

Additional observations from a re-analysis of the deposited data

How the results depend on the processing

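*Olfr151* stayed below its control level and without a call under all 12 alternatives to the fit, with log2 fold changes of -0.51 to -0.37 when each library was left out. Its adjusted p-values ran from 0.0217 with DESeq2, where the shrunken log2 fold change of -0.42 missed the threshold of 0.5, to near 1 with spike-in scaling (-0.68). Its counts per reporter count differed by -2.65 to -0.21 with each library left out. Members called went from 0 to 2 with a threshold of 10 counts and to 0 to 1 with each library left out. The mean share of *Olfr151* over the 5 pools was 95.6% of the cluster counts, 85.6% of the cluster TPM and 64.0% of the counts of all Olfr genes. Detected members went from 31 to 9 with a limit of more than 100 counts, and to 23 to 28 without single libraries. Genes called over the whole table went from 530 to 143 with spike-in scaling, 1386 with DESeq2 and 112 to 777 without single libraries. Other genes of the interval called went from 3 to 1 with spike-in scaling, 5 with DESeq2 (*Tmem218* higher and *Jhy* lower besides) and 2 to 3 without single libraries. Regulators called went from 3 to 0 with spike-in scaling, 7 with DESeq2 (1 higher and 6 lower) and 0 to 5 without single libraries. With a replicate block for the pool number, 11 genes were called over the whole table, 0 in the interval and 0 regulators. *Olfr151* was then at -0.52 (adjusted p = 0.237, edgeR). In the labels, pools share only a number. The ratio of *Olfr160* to *Olfr151* kept its direction in all 6 alternatives, added after seeing the data. The cause of these changes was not tested; leaving out a library also removes samples by construction. Members at or under 3 counts cannot be told from absent ones at this depth.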
